A study of Mus musculus with 15 samples.

Results

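The genes described here encode proteins of the meninges, the membranes that wrap the brain, and of the extracellular matrix. They were chosen by name, by a rule that uses no measured value, but with earlier results of these data known. Their contrast with all genes below is thus not a blind one. The genes made up 36 of the 24831 gene names in the deposited table. All 36 were found, and averaged over the 5 groups all 36 reached 1 RPKM, the limit that 17481 names passed. RPKM is a read count scaled to the length of the transcript and to the size of the library, so levels can be set side by side between genes. The 36 genes fell into 6 meningeal transporters and markers, 5 small proteoglycans, 5 fibrillar collagens, 9 basement membrane genes and 11 further matrix genes. Ogn was placed with the meningeal markers although its product, osteoglycin, is also a small leucine-rich proteoglycan.

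The samples were hypothalami of CD-1 mice, an outbred stock, taken on postnatal day 15, and total RNA was sequenced. There were 15 samples in 5 groups of 3, called Control, PGM, PGF, HM and HF. Per the series title the animals were of the F2 generation, and the study asked about transgenerational effects of thyroid hormone. Neither the meaning of each code nor the sex of the animals is given in the labels. By the labels, strain, age and tissue were the same for all groups. Markers of neighbouring tissues nevertheless differed between the groups, as given below. The table gave 1 mean per transcript and group, so no difference below has an SD, a test or a p-value, the spread between animals is unknown, and a mean cannot show whether 1 of its samples stood apart. Sequencing depth is unknown for the same reason. In RNA from whole tissue, fewer cells of a type and less RNA per cell cannot be told apart. Hypothalamic markers were present in each group, with summed levels of 17 genes between 1469 and 2168 RPKM.

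As background, the pia and arachnoid are sheets of fibroblasts that lie on the brain surface and follow its larger vessels inward. These cells secrete fibrillar collagens and the small proteoglycans that space the fibrils, carry transporters for amino acids and organic anions, and make retinoic acid for the tissue beneath. The basement membrane is a different sheet, a mesh of type IV collagen and laminin held together by nidogen, and endothelial cells, pericytes, astrocytes and meningeal cells all contribute to it. Brain tissue away from vessels and surface holds little fibrillar collagen.

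The meningeal and matrix genes were lower in PGM, PGF and HM than in Control and slightly higher in HF. Differences below are of log2(mean RPKM + 0.5), a group less its reference, a scale that understates the change of low genes. The median difference from Control over the 36 genes was -0.54 in PGM, -0.38 in PGF and -0.47 in HM, and it was 0.13 in HF. Over all 17481 genes the medians were, in the same order, 0.00497, -0.03, -0.03 and 0.02. The 4 comparisons share the Control mean, so they are not independent of each other.

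Counted by direction alone, 35 of 36 genes were below Control in PGM, where 48.8% of all genes were. In PGF 33 of 36 were below Control (all genes, 55.6%) and in HM 34 of 36 (all genes, 59.9%). In HF 30 of 36 were above Control, against 58.6% of all genes. A difference of 1.5-fold downward was reached by 14 members in PGM, or 38.9%, against 2.28% of all genes. It was reached by 13 in HM, or 36.1%, against 0.864%, and with a pseudocount of 1 the count in HM was 8. In PGF it was reached by 6, or 16.7%, against 1.88%, and by 12 of 36 when set against HF instead of Control, where 1.5% of all genes reached it. No member was 1.5-fold higher than Control in PGM, PGF or HM, where 2.34%, 2.16% and 0.675% of all genes were. In HF no member was 1.5-fold lower than Control (0.172% of all genes), and 2 were 1.5-fold higher, or 5.56% against 0.658%. That count of 2 in HF was 0 with a pseudocount of 1 or a limit of 3 RPKM, and 1 with the highest or the mean transcript per gene. Near the threshold of 1.5-fold, Lama4 at -0.68 lay just inside it and Col6a2 at -0.58 just outside in PGM. In HM, Col6a2 at -0.59 was inside and Col15a1 at -0.51 outside, and in PGF, Slc6a13 at -0.60 was inside and Bgn at -0.56 outside.

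**Figure D1:**
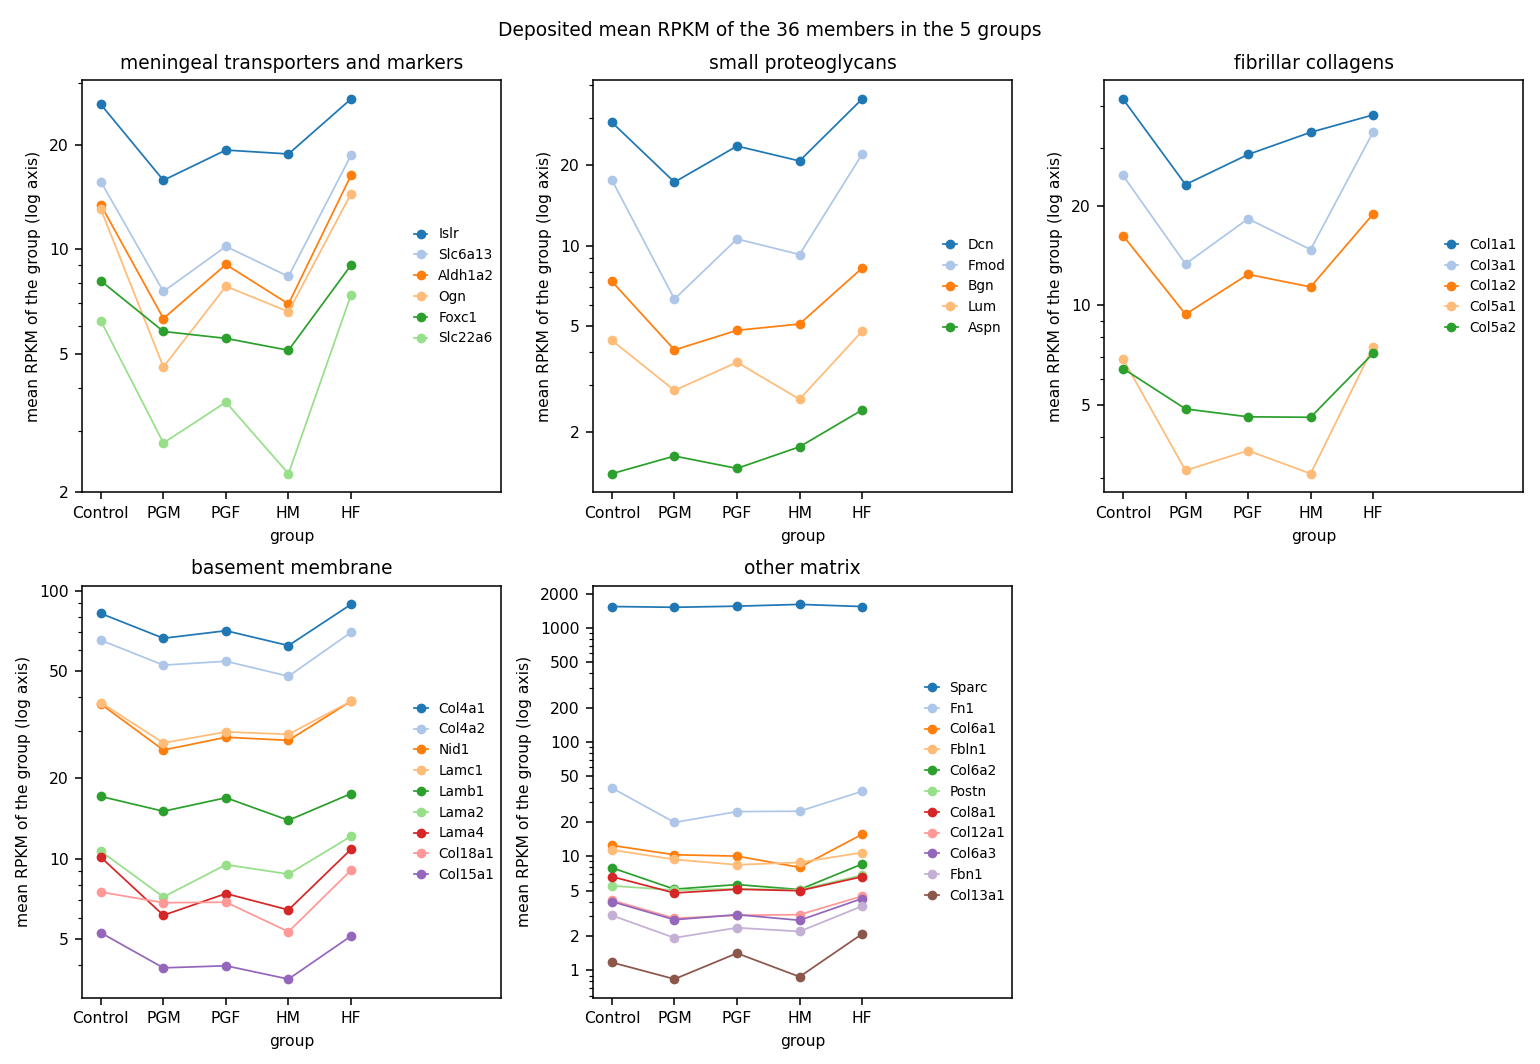
Mean RPKM of each of the 36 genes (y, log axis) in the 5 groups (x), in 1 panel per gene class. Each point is 1 deposited group mean with no error bar, and lines only join the points of 1 gene. In 33 of 36 genes the Control and HF points both lie above those of PGM, PGF and HM.

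The order of the groups was much the same from gene to gene. In 33 of 36 members, Control and HF both lay above PGM, PGF and HM, an order that 30.3% of all genes showed. HF held the highest mean in 30 of 36 members and Control in 5. PGM held the lowest mean in 21 and HM in 13. The share of all genes with a given group highest or lowest was not counted. By pairs, HF was above Control in 30 of 36 members, above PGF in 35, above HM in 35 and above PGM in 36. The same held for 58.6%, 63.2%, 68.6% and 54.2% of all genes. PGM was above HM in 14 of 36 members, where 60.8% of all genes were. The 3 members outside the order were Aspn, Col13a1 and Sparc.

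**Figure D2:**
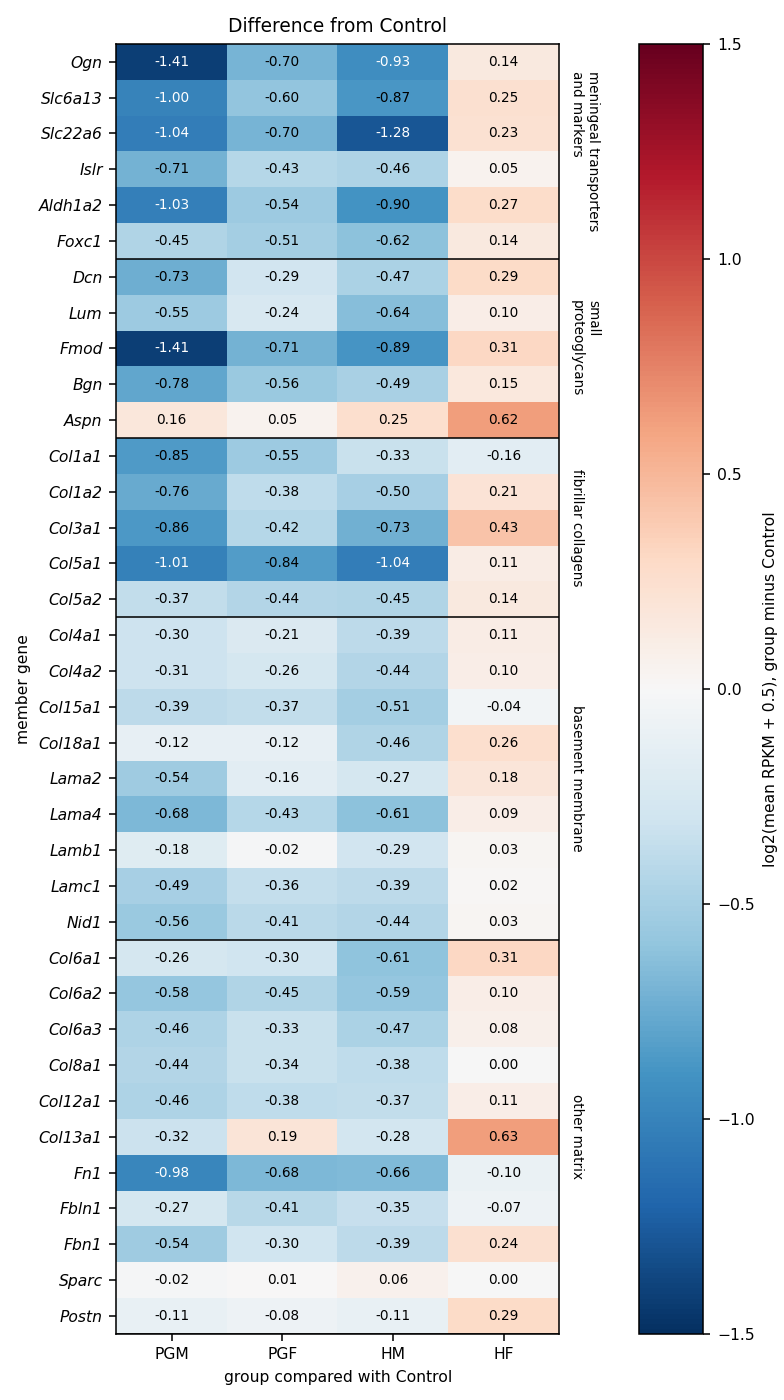
Difference of log2(mean RPKM + 0.5) between each of 4 groups (x) and Control for the 36 genes (y), printed in each cell and coloured blue for lower and red for higher. The PGM column runs from -1.41 for Ogn to 0.16 for Aspn, and the HF column holds the 2 members that were 1.5-fold higher, Aspn and Col13a1.

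The 5 members with the widest range over the groups were Fmod, Ogn, Slc22a6, Aldh1a2 and Col3a1. For that range alone, the 250 bases before their RefSeq starts (GRCm38.p6, plus strand in each case) are shown. The windows are chr1:134037004-134037253 for Fmod, chr13:49607765-49608014 for Ogn, chr19:8617746-8617995 for Slc22a6, chr9:71215539-71215788 for Aldh1a2 and chr1:45311288-45311537 for Col3a1. Capitals mark every match to the motifs spelled out after the sequences.
Fmod: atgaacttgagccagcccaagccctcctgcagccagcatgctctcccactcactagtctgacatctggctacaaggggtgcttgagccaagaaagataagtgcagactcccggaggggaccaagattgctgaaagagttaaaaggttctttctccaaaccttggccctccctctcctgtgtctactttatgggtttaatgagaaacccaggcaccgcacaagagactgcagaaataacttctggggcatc
Ogn: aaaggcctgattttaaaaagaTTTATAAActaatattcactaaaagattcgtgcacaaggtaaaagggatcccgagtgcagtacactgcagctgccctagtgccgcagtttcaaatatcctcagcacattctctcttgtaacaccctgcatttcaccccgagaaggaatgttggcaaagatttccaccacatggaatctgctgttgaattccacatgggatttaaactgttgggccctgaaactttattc
Slc22a6: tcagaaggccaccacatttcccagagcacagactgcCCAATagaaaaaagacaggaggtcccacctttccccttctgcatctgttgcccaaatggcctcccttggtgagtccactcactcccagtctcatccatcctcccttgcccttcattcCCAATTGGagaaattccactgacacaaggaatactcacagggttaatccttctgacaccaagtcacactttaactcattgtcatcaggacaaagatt
Aldh1a2: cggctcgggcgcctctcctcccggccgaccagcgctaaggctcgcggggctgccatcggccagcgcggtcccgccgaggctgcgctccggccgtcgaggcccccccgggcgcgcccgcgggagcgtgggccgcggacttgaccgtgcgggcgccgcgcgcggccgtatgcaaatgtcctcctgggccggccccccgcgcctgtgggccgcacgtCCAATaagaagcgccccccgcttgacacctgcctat
Col3a1: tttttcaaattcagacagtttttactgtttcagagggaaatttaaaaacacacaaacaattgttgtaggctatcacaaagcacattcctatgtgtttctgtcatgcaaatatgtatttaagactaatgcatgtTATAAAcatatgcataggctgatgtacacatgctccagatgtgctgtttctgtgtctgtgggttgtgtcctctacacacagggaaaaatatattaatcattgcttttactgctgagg

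Motifs were searched on both strands of such windows, namely the TATA motif TATAAA, the CAAT-box motif CCAAT, the GC-box motif GGGCGG and the forkhead motif GTAAACA. RefSeq windows were found for 28 of the 36 genes, 34 windows in all. TATAAA was present in 5 of the 34 windows or 14.7%, against 12.4% of 32851 windows of the same length. CCAAT was present in 11 or 32.4% against 33.8%, GGGCGG in 14 or 41.2% against 32.7%, and GTAAACA in 1 or 2.94% against 3.17%. Among the windows printed, Ogn held 2 overlapping matches to TATAAA from base 22 on, counted from the 5′ end, and Col3a1 held 1 at base 134. Slc22a6 held 3 matches to CCAAT, 2 of them overlapping as a palindrome, and Aldh1a2 held 1 at base 215. None of the letter strings searched was in the Fmod window. No motif of the 4 was thus present in all 5 windows.

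The meningeal transporters and markers had the lowest medians of the 5 classes in PGM, PGF and HM. The median difference from Control over these 6 genes was 0.19 in HF, -1.02 in PGM, -0.57 in PGF and -0.88 in HM on the log2 scale. Ogn (chromosome 13, 49608046 to 49624501 in GRCm38) was at 13.03 RPKM in Control, 14.4 in HF, 4.59 in PGM, 7.83 in PGF and 6.61 in HM. Control and HF stood together at the top and PGM was lowest, with a difference of -1.41 from Control. Slc6a13, a plasma membrane transporter for GABA and related amino acids (chromosome 6, 121300227 to 121337733), was at 15.7 RPKM in Control, 18.7 in HF, 7.56 in PGM, 10.2 in PGF and 8.35 in HM. Slc22a6, the organic anion transporter OAT1 known mainly from kidney (chromosome 19, 8618039 to 8628299), was at 6.22 RPKM in Control, 7.39 in HF, 2.77 in PGM, 3.63 in PGF and 2.26 in HM. HM rather than PGM was lowest for Slc22a6, with a difference of -1.28 from Control and -1.52 from HF.

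Aldh1a2 encodes the enzyme that makes retinoic acid in embryonic tissues and meninges (chromosome 9, 71215789 to 71296243). It was at 13.4 RPKM in Control, 16.3 in HF, 6.32 in PGM, 9.04 in PGF and 6.96 in HM, with differences of -1.03, -0.54, -0.90 and 0.27 from Control in PGM, PGF, HM and HF. Islr, a secreted leucine-rich repeat protein of mesenchymal cells, was at 26.1 RPKM in Control, 27.1 in HF, 15.8 in PGM, 19.3 in PGF and 18.8 in HM, and its PGM mean was again the lowest. Foxc1, a forkhead transcription factor that the developing meninges require, was at 8.11 RPKM in Control, 9.0 in HF, 5.8 in PGM, 5.54 in PGF and 5.12 in HM. The 3 low groups lay closer together for Foxc1 than for Ogn, and HM was lowest.

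Small leucine-rich proteoglycans bind collagen fibrils and set their diameter. The median difference from Control over these 5 genes was 0.29 in HF, -0.73 in PGM, -0.29 in PGF and -0.49 in HM on the log2 scale. Fmod, fibromodulin (chromosome 1, 134037254 to 134048277), was at 17.6 RPKM in Control, 21.99 in HF, 6.31 in PGM, 10.6 in PGF and 9.27 in HM. Its range over the groups, 3.303-fold between HF and PGM, was the widest of the 36 genes. Dcn, decorin, was at 28.97 RPKM in Control, 35.4 in HF, 17.3 in PGM, 23.6 in PGF and 20.8 in HM, and Bgn, biglycan, which lies on the X chromosome, was at 7.35 RPKM in Control, 8.24 in HF, 4.07 in PGM, 4.82 in PGF and 5.09 in HM. Both had their lowest mean in PGM and their highest in HF. Lum, lumican, was at 4.42 RPKM in Control, 4.78 in HF, 2.87 in PGM, 3.66 in PGF and 2.66 in HM, and HM was lowest for it.

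Aspn, asporin, departed from the other proteoglycans. It was at 1.4 RPKM in Control, 2.43 in HF, 1.63 in PGM, 1.47 in PGF and 1.77 in HM, so Control was its lowest group. Its difference from Control was 0.62 in HF, past 1.5-fold, and 0.16, 0.05 and 0.25 in PGM, PGF and HM. At 1.4 RPKM in Control it was the second lowest of the 36 genes.

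Fibrillar collagens form the tensile fibres of the arachnoid and dura. The median difference from Control over these 5 genes was 0.14 in HF, -0.85 in PGM, -0.44 in PGF and -0.50 in HM on the log2 scale. Col1a1 and Col1a2 encode the chains of type I collagen. Col1a1 (chromosome 11, 94936224 to 94953042) was at 42.1 RPKM in Control, 37.6 in HF, 23.2 in PGM, 28.6 in PGF and 33.4 in HM, and it alone of the 5 fibrillar collagen genes had a higher mean in Control than in HF. Col1a2, as the median of 3 transcripts of unlike level, was at 16.3 RPKM in Control, 18.9 in HF, 9.4 in PGM, 12.4 in PGF and 11.4 in HM. Col3a1, the type III collagen chain of pliable tissue, was at 24.7 RPKM in Control, 33.4 in HF, 13.3 in PGM, 18.3 in PGF and 14.7 in HM, and its HM mean differed from its HF mean by -1.15.

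The type V chains, which start fibrils and sit inside them, differed from each other. Col5a1 (chromosome 2, 27886425 to 28039514) was at 6.89 RPKM in Control, 7.48 in HF, 3.17 in PGM, 3.64 in PGF and 3.1 in HM, with differences of -1.01 in PGM, -0.84 in PGF and -1.04 in HM. Col5a2 was at 6.45 RPKM in Control, 7.16 in HF, 4.87 in PGM, 4.61 in PGF and 4.59 in HM, with differences of -0.37, -0.44 and -0.45. The ratio of Col5a1 to Col5a2 RPKM was 1.07 in Control, 1.04 in HF, 0.652 in PGM, 0.7904 in PGF and 0.675 in HM. It was near 1 where both genes were high and below 1 where both were low. The ratio of Col1a1 to Col1a2 was 2.59 in Control, 1.99 in HF, 2.47 in PGM, 2.303 in PGF and 2.93 in HM, highest in HM and lowest in HF. Its level rests on the median over the 3 Col1a2 transcripts, which were at 63.46, 16.26 and 8.82 RPKM in Control. The highest of them was above Col1a1, at 42.05 RPKM in Control, so which chain had more RNA is not settled.

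Basement membrane genes were lower in the same groups by a smaller amount. The median difference from Control over these 9 genes was 0.09 in HF, -0.39 in PGM, -0.26 in PGF and -0.44 in HM on the log2 scale. Only Lama4 passed 1.5-fold, in PGM and in HM, of the 9 genes against Control. That holds for the median over transcripts. The Lama4 transcript with the highest level, 13.38 RPKM in Control, was short of 1.5-fold in PGM, at -0.57. A Col18a1 transcript at 3.17 RPKM in Control was past it in HM, at -0.69. Col4a1 and Col4a2 encode the main type IV collagen chains. Col4a1 was at 82.2 RPKM in Control, 88.9 in HF, 66.4 in PGM, 70.9 in PGF and 62.4 in HM, and Col4a2 at 65.3 RPKM in Control, 69.9 in HF, 52.8 in PGM, 54.5 in PGF and 47.9 in HM. After Sparc these were the most abundant of the 36 genes in Control. Their ratio was 1.26 in Control, 1.27 in HF, 1.26 in PGM, 1.3 in PGF and 1.302 in HM, a narrower range than that of the type I or type V pair. The genes lie head to head on chromosome 8, on opposite strands, and their RefSeq starts at 11312826 and 11312805 are 21 bases apart. Their ends overlap, and whether counting used strand is not known.

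Laminins are trimers of an alpha, a beta and a gamma chain. Lama4, the alpha chain of vascular basement membranes, was at 10.1 RPKM in Control, 10.8 in HF, 6.15 in PGM, 7.41 in PGF and 6.44 in HM. Lama2, the alpha chain found around brain vessels and in the pia, was at 10.7 RPKM in Control, 12.1 in HF, 7.2 in PGM, 9.5 in PGF and 8.76 in HM. Both alpha chains had PGM as the lowest group. Lamc1, the common gamma chain, was at 38.2 RPKM in Control, 38.7 in HF, 27.02 in PGM, 29.7 in PGF and 29.1 in HM, while Lamb1, a beta chain, ran only from 13.9 in HM to 17.5 RPKM in HF. Nid1, nidogen, which bridges laminin and type IV collagen, was at 37.8 RPKM in Control, 38.7 in HF, 25.4 in PGM, 28.4 in PGF and 27.6 in HM. Lamc1 and Nid1 had nearly equal levels in every group. Of the collagens with an endostatin-type end, Col15a1 ranged from 3.56 in HM to 5.29 RPKM in Control. Col18a1 ranged from 5.34 in HM to 9.06 RPKM in HF, and its differences from Control in PGM and PGF were -0.12 and -0.12.

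The remaining matrix genes were mixed. The median difference from Control over these 11 genes was 0.10 in HF, -0.44 in PGM, -0.33 in PGF and -0.38 in HM on the log2 scale. Fn1, fibronectin, a large adhesive glycoprotein of matrix and plasma (chromosome 1, 71585520 to 71653200), was at 39.6 RPKM in Control, 37.05 in HF, 19.8 in PGM, 24.6 in PGF and 24.8 in HM. It was the member of this class with the lowest differences in PGM and PGF, at -0.98 and -0.68, and Control was its highest group. Col6a1, Col6a2 and Col6a3 encode chains of the beaded microfibrils of type VI collagen. Col6a1 was at 12.5 RPKM in Control, 15.6 in HF, 10.3 in PGM, 10.03 in PGF and 7.99 in HM, and HM was lowest. Col6a2 and Col6a3 were also lowest in HM, at 5.11 and 2.75 RPKM, against 7.92 and 4.01 in Control.

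Fbn1, fibrillin, the backbone of elastic microfibrils, differed from Control by 0.24 in HF, -0.54 in PGM, -0.30 in PGF and -0.39 in HM. Fbln1, fibulin, a binding partner of fibronectin and elastic fibres, had PGF as its lowest group, at 8.43 against 11.4 RPKM. Col12a1, which decorates fibril surfaces, was between 2.86 in PGM and 4.47 in HF. Col8a1, a short-chain collagen of vessels, lay between 4.77 in PGM and 6.63 RPKM in Control. The differences of these 4 genes from Control in PGM, PGF and HM stayed under 1.5-fold on the scale used. For Fbn1 in PGM that depended on the pseudocount and on the median over transcripts. Its level was 3.03 RPKM in Control and 1.93 in PGM, a plain ratio of 0.637. Its 4 transcripts differed by -0.72 to -0.45 in PGM, and the one at -0.72, at 7.28 RPKM in Control, was past 1.5-fold.

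Sparc, Postn and Col13a1 did not share the general size or direction. Sparc, a collagen-binding matricellular protein that glia and endothelium of the brain make in quantity (chromosome 11, 55394500 to 55423183), was at 1540.31 RPKM in Control, 1539.51 in HF, 1516 in PGM, 1551 in PGF and 1607 in HM. Its range was 1.06-fold, the narrowest of the 36 genes, at the highest level. Postn, periostin, a matricellular protein of connective tissue, was between 5.05 in PGM and 6.83 RPKM in HF, with 5.51 in Control. Col13a1, a collagen that spans the cell membrane, was at 1.18 RPKM in Control, 2.09 in HF, 0.84 in PGM, 1.42 in PGF and 0.88 in HM. It was the lowest of the 36 genes in Control, higher in PGF than in Control by 0.19, and higher in HF by 0.63.

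The table held 85 transcripts of the 36 genes, and 24 genes had more than 1. In PGM 83 of the 85 transcripts were below Control, in PGF 77 and in HM 81, while 65 were above Control in HF. The share over all 49404 transcripts was not counted. By gene name, 48.8%, 55.6% and 59.9% of all genes were below Control in PGM, PGF and HM, and 58.6% were above it in HF. Every transcript of a gene lay on the same side of Control in 24 of the 24 genes for PGM, PGF and HM, and in 23 of 24 for HF. Fn1 had 10 transcripts, whose PGM differences ran from -1.004 to -0.60. Lama4 had 5, and these crossed 0 in HF, from -0.04 to 0.11. Bgn had 3, from -0.78 to -0.56 in PGM, and the highest in level, 15.43 RPKM in Control, was short of 1.5-fold. Transcripts of a gene overlap in sequence and can share reads, so they are not separate measurements.

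**Figure D3:**
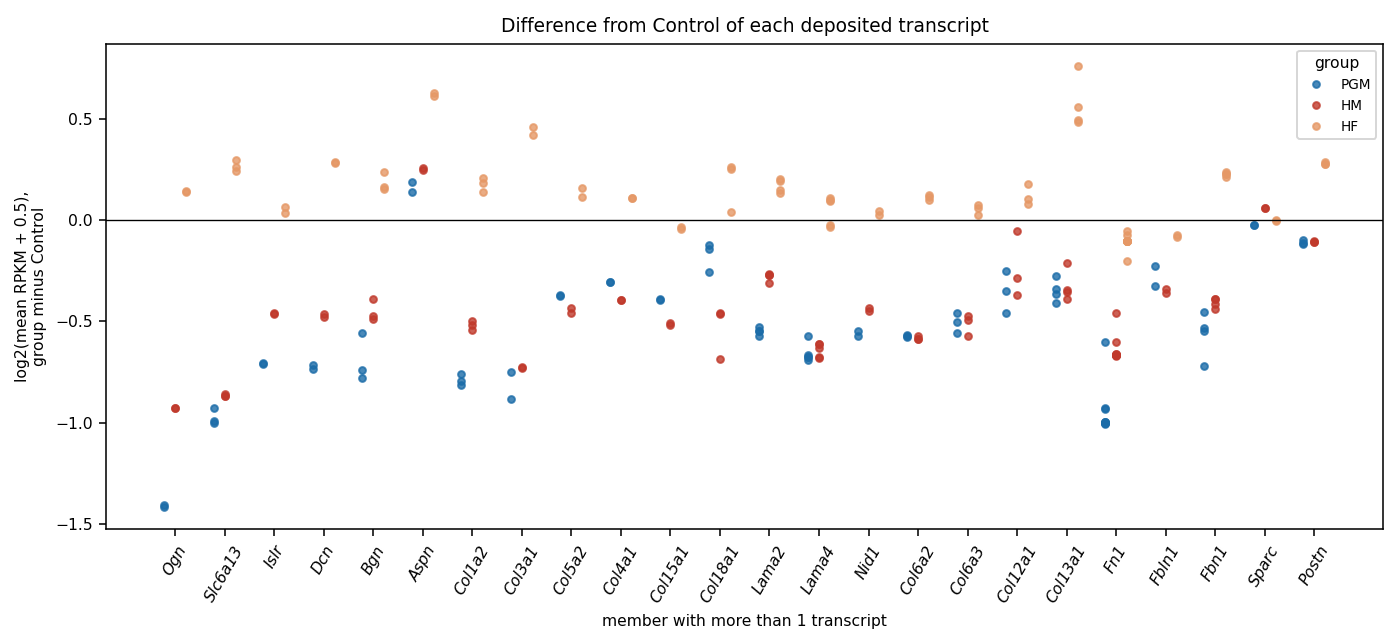
Difference of log2(mean RPKM + 0.5) from Control (y) of each deposited transcript of the 24 genes with more than 1 (x), for PGM, HM and HF. Each point is 1 transcript, and points of 1 gene and group lie close together apart from genes such as Fn1 and Col13a1.

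Several members were neighbours in the genome. Ogn and Aspn lie 40480 bases apart on chromosome 13, and their differences from Control in PGM were -1.41 and 0.16. Dcn and Lum lie 46984 bases apart on chromosome 10, with -0.73 and -0.55. Col3a1 and Col5a2 lie 24614 bases apart on chromosome 1 on opposite strands, with -0.86 and -0.37. Col6a1 and Col6a2 lie 85161 bases apart on chromosome 10, with -0.26 and -0.58, and Col18a1, 326009 bases from Col6a1, had -0.12. Neighbours thus ran together in the decorin pair and apart in the osteoglycin pair, where Aspn was at only 1.4 RPKM in Control.

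The groups HM and HF were compared directly, as were PGM and PGF, which share no samples with them. HM was below HF in 35 of 36 members with a median difference of -0.61, where 68.6% of all genes were below and their median was -0.05. It was at least 1.5-fold lower in 19 members or 52.8%, against 1.31% of all genes. The meningeal markers led with a median of -1.09, followed by small proteoglycans at -0.74, fibrillar collagens at -0.71, the further matrix genes at -0.55 and basement membrane at -0.48. The lowest was Slc22a6 at -1.52, then Fmod at -1.20 and Aldh1a2 at -1.17. Sparc at 0.06 was the member above 0, and none was 1.5-fold higher, where 0.366% of all genes were.

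PGM was below PGF in 31 of 36 members, and the median difference was -0.17, while 37.4% of all genes were below and their median was 0.03. Only Ogn at -0.71 and Fmod at -0.70 passed 1.5-fold, 5.56% of the members against 0.555% of all genes. Foxc1, Aspn, Col5a2, Col6a1 and Fbln1 were higher in PGM than in PGF, by 0.15 at most, for Fbln1, while 0.435% of all genes were 1.5-fold higher. The further matrix genes were closest, with a median of -0.10.

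**Figure D4:**
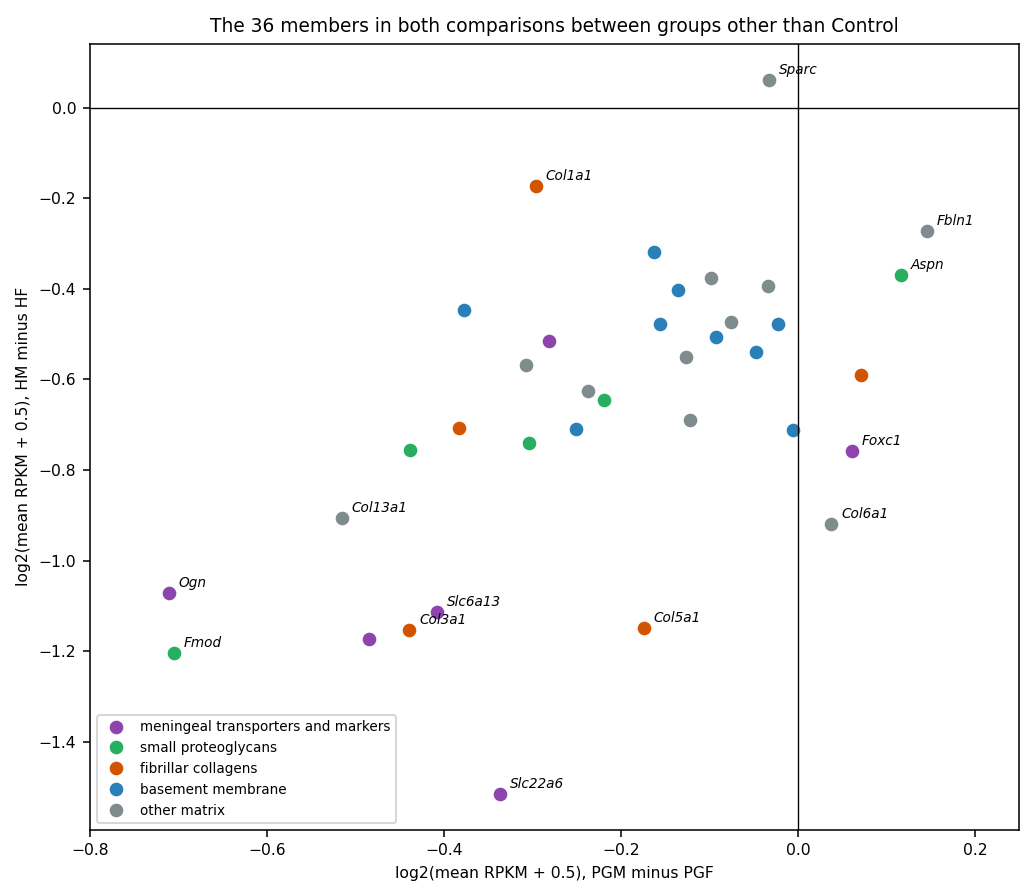
Difference of log2(mean RPKM + 0.5) between PGM and PGF (x) and between HM and HF (y) for the 36 genes, 1 point per gene coloured by class. Most points lie below 0 on both axes, with the y range down to -1.52 for Slc22a6 and the x range down to -0.71 for Ogn.

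Other genes of the same tissues and pathways were read from lists that were written without picking members by how they moved in this table, although earlier results of these data were known. Of 34 further meningeal genes measured, 27 were lower than Control in PGM, 25 in PGF and 27 in HM. Of all genes 48.8%, 55.6% and 59.9% were lower. The medians of the 34 genes were -0.48, -0.29 and -0.47, and the median in HF was 0.12. At least 1.5-fold lower were 38.2%, 23.5% and 41.2% of them (all genes, 2.28%, 1.88% and 0.864%). At least 1.5-fold higher were 5.88%, 5.88% and 2.94% (all genes, 2.34%, 2.16% and 0.675%). Ptgds, a prostaglandin D synthase abundant in the arachnoid and also made by oligodendrocytes, was at 1468 RPKM in Control, 1544 in HF, 538 in PGM, 803 in PGF and 696 in HM. Crabp2, a binding protein for retinoic acid, was at 8.69 RPKM in Control, 10.1 in HF, 3.62 in PGM, 4.67 in PGF and 4.29 in HM. Both had HF and Control highest and PGM lowest, as Ogn did. Cdh1, the epithelial cadherin of arachnoid barrier cells, was at 3.01 RPKM in Control and 0.81 in PGM, and Wnt6 at 3.97 and 1.64.

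Of 35 further matrix and basement membrane genes, 25 were lower in PGM, 26 in PGF and 28 in HM (all genes, 48.8%, 55.6% and 59.9%). Their medians were -0.38, -0.19 and -0.25. Mgp, matrix Gla protein, was at 38.6 RPKM in Control, 49.2 in HF, 24.6 in PGM, 31.9 in PGF and 27.5 in HM. Enzymes that process collagen had medians of -0.08 in PGM, -0.00736 in PGF and -0.14 in HM over 23 genes. Lower than Control were 18 of the 23 in PGM, 12 in PGF and 19 in HM (all genes, 48.8%, 55.6% and 59.9%). At least 1.5-fold lower were 8.7% in each of these groups (all genes, 2.28%, 1.88% and 0.864%). Within that list the cross-linking enzyme gene Loxl1 was lower than Control in all 3 groups, at 9.95 RPKM in Control, 9.83 in HF, 5.49 in PGM, 6.26 in PGF and 5.71 in HM. Matrix receptors had medians of -0.18, -0.17 and -0.23 over 18 genes. Matrix proteases and their inhibitors had -0.07, -0.05 and -0.17 over 22, and Mmp2, which degrades type IV collagen, was at 9.6 RPKM in Control, 10.5 in HF, 6.26 in PGM, 7.33 in PGF and 6.55 in HM. TGF-beta ligands and binding proteins had -0.12, -0.18 and -0.18 over 15. The matrix of the brain tissue itself, made of hyaluronan-binding proteoglycans and tenascins, had medians of -0.08, -0.07 and -0.10 over 17 genes, closer to 0 than any class of the members.

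**Figure D5:**
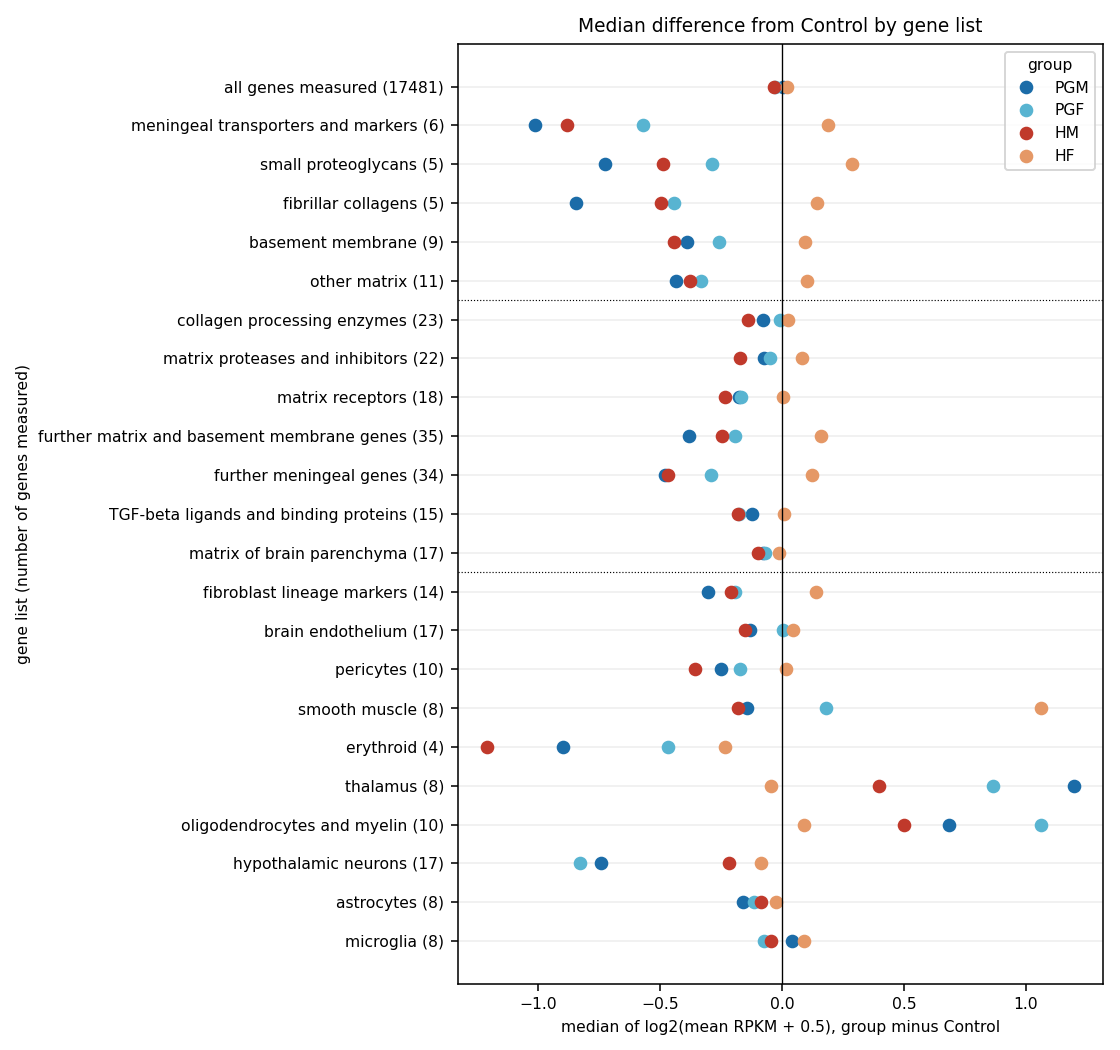
Median difference of log2(mean RPKM + 0.5) from Control (x) for gene lists (y, number of genes measured in brackets), 1 point per group. From the top, the rows show all genes, the 5 member classes, 7 lists of related genes and 10 marker lists, and the meningeal markers and fibrillar collagens lie at -1.02 and -0.85 in PGM.

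Markers of other cells that make matrix were set beside the members, with sums taken over every gene of a list that was found. Brain endothelium markers had medians of -0.13 in PGM, 0.00402 in PGF, -0.15 in HM over 17 genes, with 0.04 in HF, and they summed to 515 RPKM in Control, 563 in HF, 497 in PGM, 536 in PGF and 520.47 in HM. Pericyte markers had -0.25, -0.17, -0.36 and 0.02 over 10 genes, 10 lower in PGM and 10 in HM (all genes, 48.8% and 59.9%). They summed to 323 RPKM in Control, 338 in HF, 266 in PGM, 286 in PGF and 257 in HM. General fibroblast markers had -0.31, -0.20, -0.21 and 0.14 over 14 genes, with summed levels of 914 RPKM in Control, 935 in HF, 892 in PGM, 1031 in PGF and 869 in HM. That sum did not follow the median, and Gsn, gelsolin, also made by oligodendrocytes, was 139 RPKM of it in Control and 250.04 in PGF. Smooth muscle markers stood apart in HF, with a median of 1.06 against -0.15, 0.18 and -0.18 in PGM, PGF and HM, and summed to 77.4 RPKM in Control, 156 in HF, 64.4 in PGM, 80.3 in PGF and 63.2 in HM. Eln, elastin, was at 24.7 RPKM in Control, 43.8 in HF, 17.9 in PGM, 19.9 in PGF and 15.9 in HM. No gene of these 4 lists was at 0 in every group.

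Other tissues also varied with the groups. Erythroid genes were lower than Control in 4 of 4 measured members in PGM, PGF and HM, with medians of -0.90, -0.47 and -1.21, and summed to 4999 RPKM in Control, 4387 in HF, 2823 in PGM, 3751 in PGF and 2328 in HM; the globin genes among them are near-identical copies and uncertain as single genes. Thalamic markers were higher in 8 of 8 in the same groups, with medians of 1.20, 0.87 and 0.40, and summed to 166 RPKM in Control, 162 in HF, 429 in PGM, 413 in PGF and 244 in HM. Myelin genes were higher in 10 of 10, with medians of 0.68, 1.06 and 0.50, and summed to 7073 RPKM in Control, 7497 in HF, 11327 in PGM, 14190.1 in PGF and 9691 in HM. Hypothalamic neuron markers had medians of -0.74, -0.83 and -0.22 over 17 genes, with 15, 14 and 10 of them lower. Of all genes 48.8%, 55.6% and 59.9% were lower in these groups, so the count in HM was near that of all genes. At least 1.5-fold lower were 64.7%, 70.6% and 5.88% of the hypothalamic markers, against 2.28%, 1.88% and 0.864% of all genes. Beside the counts of higher thalamic, myelin and pituitary genes, 8902, 7721 and 6958 of all 17481 genes were higher in PGM, PGF and HM. In PGF all 7 pituitary hormone genes were higher than Control, with a median of 3.67, and their sum was 97.3 RPKM in Control, 58.6 in HF, 87.9 in PGM, 2025 in PGF and 112 in HM. Choroid plexus genes, with a median of 0.53 in PGF, summed to 33.3 RPKM in Control, 46.1 in HF, 132 in PGM, 479 in PGF and 48.4 in HM, and Ttr, transthyretin, was most of that sum in PGM and PGF, at 106 and 440.49 RPKM. Striatal and cortical markers had medians of 0.61, 0.32 and 0.16 in PGM, PGF and HM, and tanycyte and ependymal markers 0.34, 0.06 and 0.39. Astrocyte markers had -0.16, -0.12 and -0.09, and microglia 0.04, -0.07 and -0.05. The 14 lens crystallins summed to 42.3 RPKM in Control, 20.0 in HF, 18.2 in PGM, 18.5 in PGF and 18.7 in HM. The part of these cell and tissue markers in the differences of the meningeal and matrix genes was not tested.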

How the data were processed

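Total RNA of 15 hypothalamus samples, 3 in each of 5 groups, was sequenced, and samples were grouped by their titles. The authors deposited 1 table of RPKM values, already averaged over the samples of each group and rounded to 2 decimals, for 49404 transcripts. The column names gave the groups, and 1 repeated header line inside the table, which names the columns as means, was removed. Reads were checked with FastQC and aligned with Novoalign 2.08 to mm10, per the submitters' processing notes. The counting program, its handling of shared reads and strand, and the depth were not given in the sources used here.

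The median over its transcripts stood for each gene name, names averaging 1 RPKM or more across the 5 groups entered (17481 of 24831), and differences were taken on log2(mean RPKM + 0.5). With 1 mean per group no test was possible, so 6 comparisons are described by counts at 1.5-fold and medians, beside the same over all genes that entered. The planned limma test for values per sample did not apply. Gene positions come from GENCODE M21 on GRCm38, which is mm10, and upstream windows are from RefSeq GRCm38.p6. The members and lists were chosen with earlier results of these data known. All members are reported, and from other lists at most the 4 genes with the widest range and at least 2 RPKM in 1 group are named. Of 336 names in 22 such lists, 335 were found. The counting step was tested on simulated data. Alternatives were a pseudocount of 0.1 or 1, no low-level filter, a limit of 3 RPKM, scaling to the upper quartile, the highest or mean transcript per gene, HF as the reference, and a 2-fold threshold. Python 3.11.15, numpy 2.4.6, pandas 2.3.3 and matplotlib 3.10.9 were used.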

Additional observations from a re-analysis of the deposited data

How the results depend on the processing

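No paired analysis was possible because the table holds 1 mean per group, and for the same reason no replicate could be left out. Over all alternatives the median difference of the 36 genes had the same sign in the 6 comparisons. With the reference unchanged it ran from -0.56 to -0.49 for PGM, -0.41 to -0.36 for PGF, -0.48 to -0.45 for HM and 0.11 to 0.14 for HF against Control, from -0.20 to -0.16 for PGM against PGF and from -0.66 to -0.55 for HM against HF. Against HF instead of Control it was -0.66 in PGM and -0.50 in PGF. Of 147 values under alternatives, 135 stayed within 1.5 times the value reported and 12 did not. The 135 include counts that stayed at 0. They also include every value with no low-level filter, which could not change because all 36 genes passed that limit. A 2-fold threshold left 6 of 14 lower members in PGM, 0 of 6 in PGF, 2 of 13 in HM, 0 of 2 for PGM against PGF and 7 of 19 for HM against HF, and 0 of 2 higher members in HF, as a stricter limit must. The share of all genes past 2-fold was not counted, so these counts cannot be set against it. With a pseudocount of 1, 8 members were lower in HM instead of 13, and 0 were higher in HF instead of 2. The 2 higher members in HF, Aspn and Col13a1, became 0 with a mean of at least 3 RPKM, which removes both, and 1 with the highest or the mean transcript per gene. With HF as the reference 12 members were lower in PGF instead of 6. Upper quartile scaling moved the median of all genes by under 0.1 in each comparison. Depth is unknown, so low values such as those of Aspn and Col13a1 carry no interval.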

Other observations

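Genes that act on the matrix, and were not described above, are given as values without error. Lox, a cross-linking enzyme of collagen and elastin, was at 4.16 RPKM in Control, 4.98 in HF, 2.32 in PGM, 2.61 in PGF and 2.51 in HM. Mfap4 and Emilin1, proteins of elastic microfibrils, were at 7.96 and 3.61 RPKM in Control and at 3.895 and 1.91 in PGM. Mrc2, which takes up collagen fragments, was at 6.14 RPKM in Control, 6.4 in HF, 3.16 in PGM, 3.62 in PGF and 3.69 in HM, and Ddr2, a receptor kinase for fibrillar collagen, at 4.96 in Control and 3.03 in PGM. PGM was the lowest group for these genes but not for others of the same lists. Pcolce, which helps to trim procollagen, was at 9.9 RPKM in Control, 12.7 in HF, 7.14 in PGM, 10.2 in PGF and 7.08 in HM, and Creb3l1, a transcription factor for collagen genes, was at 3.18 RPKM in Control, 2.28 in HF, 2.04 in PGM, 1.83 in PGF and 2.23 in HM.

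Tgfb1, a ligand that raises matrix production in many cells, was at 3.17 RPKM in Control, 2.34 in HF, 1.73 in PGM, 1.82 in PGF and 2.0 in HM, while Ltbp4, which anchors the latent ligand in matrix, was lowest in HM, at 12.6 against 20.8 RPKM in Control. Ctgf, a matricellular growth factor of vessels and fibroblasts, was at 10.95 RPKM in Control, 17.2 in HF, 7.87 in PGM, 11.2 in PGF and 10.6 in HM, with HF highest. In the matrix of the brain tissue, Hapln2, a link protein at nodes of Ranvier, was at 4.16 RPKM in Control, 5.62 in HF, 11.96 in PGM, 14.2 in PGF and 8.62 in HM, so Control and HF were its lowest groups, and Reln, reelin, was at 32.02 in Control and 21.4 RPKM in PGF.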
